A study of Homo sapiens with 9 samples.

Results

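The primitive streak is the site at which epiblast cells leave the epithelium to form mesoderm and endoderm, and the organizer is the part of the early embryo that sets up its axes. Both are read from a small set of transcription factors. The 10 examined here were TBXT (ENSG00000164458), EOMES (ENSG00000163508), MIXL1 (ENSG00000185155), GSC (ENSG00000133937), LHX1 (ENSG00000273706), OTX2 (ENSG00000165588), TBX3 (ENSG00000135111), MESP1 (ENSG00000166823), EVX1 (ENSG00000106038) and CDX1 (ENSG00000113722), chosen by symbol out of the 36601 genes of the count matrices. All 10 had a row in both matrices and all 10 were detected at both days.

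The samples were human extra-embryoids (hEEs), three-dimensional aggregates in which embryonic cells and hypoblast-like cells arise together, made from the wild-type human embryonic stem cell line ESI017 after conversion to an expanded-potential state. Structures were collected at day 4 (D4) and day 6 (D6). Both groups share the cell line, and neither carries a treatment label. Each day was 1 droplet library, pooled from 4 AggreWells of 2 independent experiments without a label that separates them, so no value below has a replicate check and no test was made. The chemistry captures transcript 3′ ends, so that counts of unique molecular identifiers (UMIs) do not grow with transcript length. Levels are given as CPM, the UMIs of a gene per 1000000 UMIs of a cell gate, and different genes were compared on that scale.

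In the gastrulating embryo, NODAL and WNT signals act on the posterior epiblast, where the T-box factors TBXT and EOMES and the homeobox factor MIXL1 are switched on, and cells that go on to mesoderm add MESP1. GSC, LHX1 and OTX2 are known from the organizer and its anterior derivatives, but also from the anterior visceral endoderm (AVE), a hypoblast-derived tissue that secretes NODAL, BMP and WNT antagonists. A UMI of any of them therefore does not by itself say which tissue a cell belongs to, and the levels are given by cell gate.

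After removal of cells with few or very many UMIs or over 10% mitochondrial UMIs, 9151 of 10943 cells were kept at D4 and 10097 of 11483 at D6. The embryonic gate (at least 5 UMIs of POU5F1, at least 1 of SOX2 and at most 2 of FN1) held 3716 cells at D4 and 5054 at D6, with medians of 15158 and 14226 UMIs per cell. The hypoblast gate (at least 3 UMIs of FN1, none of SOX2 and at most 5 of POU5F1) held 4061 and 3567 cells, with medians of 11012 and 10902. Cells with at least 2 HAND1 UMIs and at least 1 of the glycophorin genes GYPE or GYPB numbered 78 at D6 (median 12787) but 2 at D4, and 32 of the 78 were also in the hypoblast gate and 2 in the embryonic gate. No gate took 1374 cells at D4 and 1432 at D6. Gated cells of D6 had between 3432 and 27461 UMIs, and shares called thinned come from reducing every cell at random to the lowest total allowed for a kept cell. Of the cell barcodes, 40 occurred in both libraries, 27 of them among kept cells.

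Markers that the gates did not use were mostly placed as the gate names say. Hypoblast markers, apolipoproteins and GATA factors among them, summed to 8025 CPM in the hypoblast gate of D4 and 22544 at D6, against 1008 and 1231 in the embryonic gate. Embryonic markers summed to 2158 and 2110 in the embryonic gate but were not absent from the hypoblast gate (921.5 and 880.1). In the HAND1 and glycophorin gate of D6, 8 of 8 mesoderm markers with enough UMIs were at least 2-fold above the embryonic gate. Of all 19370 genes with enough UMIs, 13.4% were. The mesoderm markers summed to 3614 against 535.6, of which VIM alone gave 3277. Hypoblast markers were also higher there than in the embryonic gate, 7 of 8, with a sum of 3771 against 1231. Of 6 AVE markers, 2 were higher and 2 lower, with a sum of 1346 against 38.15. The embryonic globins HBE1 and HBZ were each in 0 of the 78 cells, which allows a share of up to 3.85%, and trophoblast markers summed to at most 0.0267 in the embryonic and hypoblast gates of D6.

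Promoters of the factors are shown first, because NODAL acts through FOXH1 with SMAD2 and SMAD3 and WNT through TCF/LEF, and the letters those factors read can be looked for directly. RefSeq promoter entries (GRCh38.p14) matched 6 of the 10 factors with 8 start sites, and the 250 bases before each start were searched on both strands. The 4 shown are the windows of MIXL1, EOMES, GSC and TBXT with a FOXH1 or TCF/LEF match. They lie at chr1:226223414-226223663 (MIXL1, plus strand), chr3:27722324-27722573 (EOMES, minus strand), chr14:94770114-94770363 (GSC, minus strand) and chr6:166167852-166168101 (TBXT, minus strand), each ending at the base before the start, and capitals mark the matches. The OTX2 and EVX1 windows, which also held matches, are described without being printed.
MIXL1: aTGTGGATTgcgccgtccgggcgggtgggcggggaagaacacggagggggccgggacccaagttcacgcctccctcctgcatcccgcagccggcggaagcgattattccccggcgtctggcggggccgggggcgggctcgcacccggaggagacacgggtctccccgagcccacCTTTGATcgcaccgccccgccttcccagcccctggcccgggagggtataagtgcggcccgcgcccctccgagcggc
EOMES: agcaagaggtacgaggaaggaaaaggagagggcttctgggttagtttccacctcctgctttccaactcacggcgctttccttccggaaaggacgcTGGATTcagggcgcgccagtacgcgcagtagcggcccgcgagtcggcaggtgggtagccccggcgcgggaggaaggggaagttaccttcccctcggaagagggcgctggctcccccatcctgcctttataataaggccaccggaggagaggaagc
GSC: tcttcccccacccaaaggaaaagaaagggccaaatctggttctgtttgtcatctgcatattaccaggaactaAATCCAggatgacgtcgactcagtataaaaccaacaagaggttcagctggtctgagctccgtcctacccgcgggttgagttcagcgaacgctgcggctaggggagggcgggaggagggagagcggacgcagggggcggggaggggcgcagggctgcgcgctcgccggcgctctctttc
TBXT: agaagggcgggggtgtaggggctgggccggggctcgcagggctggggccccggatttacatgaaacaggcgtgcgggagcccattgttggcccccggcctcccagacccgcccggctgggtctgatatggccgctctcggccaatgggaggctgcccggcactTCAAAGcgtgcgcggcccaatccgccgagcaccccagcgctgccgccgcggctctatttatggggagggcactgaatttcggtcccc

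MIXL1 was the one window of the 8 with both longer sites. The FOXH1 letters AATCCACA began 249 bases before its start, read on the opposite strand, and the TCF/LEF letters CTTTGAT 76 bases before it. Of 35116 human promoters of the same length, 0.709% held the first and 2.26% the second. The shorter FOXH1 core AATCCA, which lies inside the longer site and is found in 9% of promoters, was also present before EOMES (155 bases), GSC (178 bases) and 1 start of OTX2 (162 bases), while the TCF/LEF core CTTTGA (11.2% of promoters) stood 87 bases before the TBXT start shown. The GATA letters AGATAA (9.17%) were found before the other OTX2 start, and the SMAD letters CAGACA (13.6%) before that start and before EVX1. None of the 8 windows held the T-box letters AGGTGTGA (0.786%) or the homeobox letters TAATCC (5.62%) and TAATTA (4.35%). These matches describe letters in a window, and no binding was measured.

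The factors, MESP1 excepted, differed more between lineages than between days. At D6, 9 of the 10 factors were at least 2-fold higher in the hypoblast gate than in the embryonic gate and 0 were lower, where 14.7% of all 20708 genes with at least 10 UMIs were higher and 22% lower. Without the cells of the HAND1 and glycophorin gate the count was 8, MESP1 then being under 2-fold. At D4, 8 of 10 were higher and 0 lower, against 15.2% and 16.5% of 20214 genes. The median log2 ratio over the 10 factors was 3.75 at D4 and 4.67 at D6, while that over all genes counted was -0.05 and -0.18. Levels of genes named for the streak were thus higher in hypoblast gate cells than in embryonic gate cells, MESP1 and OTX2 by least. Intervals given with values are 95% intervals and cover counting error alone (exact Poisson for levels, Clopper-Pearson for shares, conditional binomial for ratios).

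**Figure D1:**
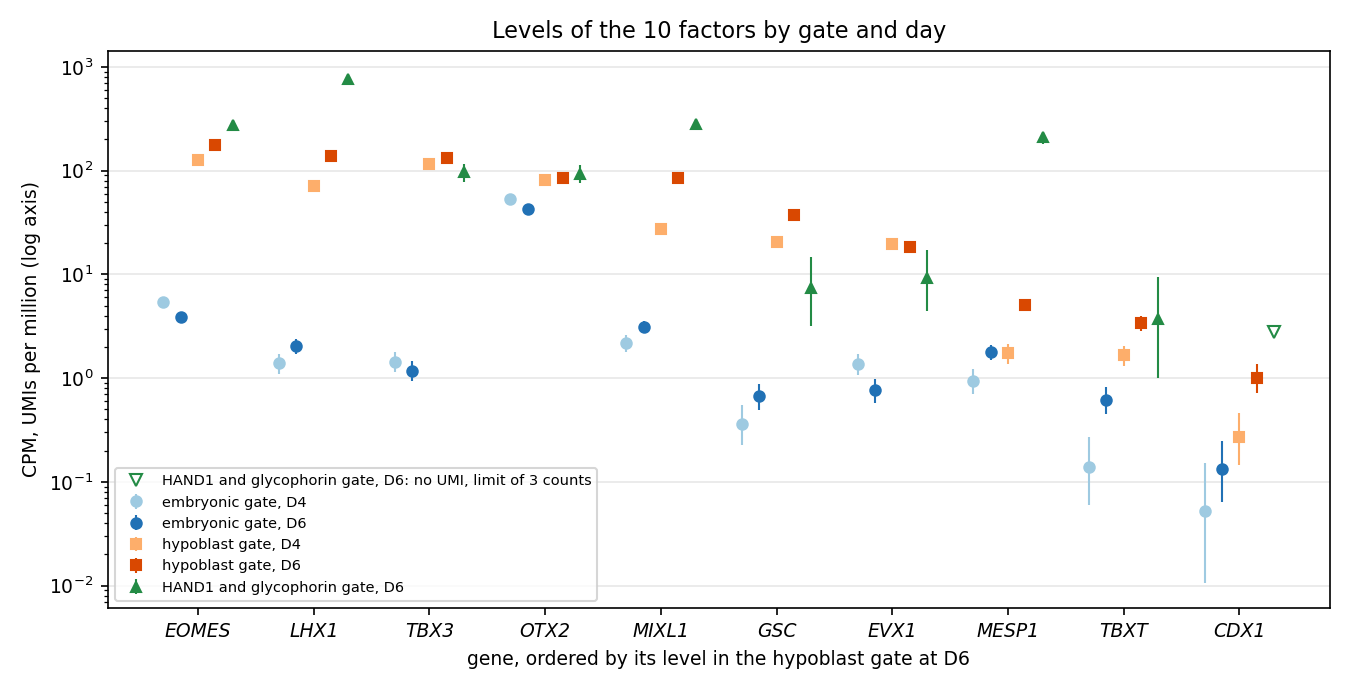
Level of each factor in CPM (log axis) by cell gate and day, with exact Poisson 95% intervals, ordered by the level in the hypoblast gate of D6. Squares (hypoblast gate) lie above circles (embryonic gate) of the same day for every factor, and OTX2 has the smallest gap at D4 and D6 alike. Triangles (HAND1 and glycophorin gate, D6) stand above both other gates, with intervals that do not overlap, for LHX1 (762), MIXL1 (279.9), EOMES (275) and MESP1 (209). Those of OTX2 and TBXT are also above both, but their intervals overlap that of the hypoblast gate. The open triangle for CDX1 marks the limit of 3 counts used where the count was 0, 2.77 CPM.

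Among the T-box factors, EOMES, which is needed for definitive endoderm and for the exit of mesoderm from the epiblast, had the highest level of the 10 in the hypoblast gate on both days. Its level there was 128 CPM (124.6 to 131) at D4 and 175.5 (171.5 to 179.6) at D6, against 5.47 (4.88 to 6.11) and 3.85 (3.42 to 4.32) in the embryonic gate. The days thus differed in opposite directions in the 2 gates, by a log2 ratio of 0.46 (0.41 to 0.51) in the hypoblast gate and -0.51 (-0.74 to -0.27) in the embryonic gate. A UMI of EOMES was found in 68% of hypoblast gate cells at D4 and 77% at D6, but in 6.94% and 4.37% of embryonic gate cells, which had more UMIs per cell. Thinned, the hypoblast shares were 32.7% and 40.9%.

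TBX3, a T-box repressor of the extra-embryonic endoderm and of pluripotent cells, had the widest gap between lineages. It stood at 115 CPM (112 to 118.1) in the hypoblast gate of D4 and 132.5 (129 to 136) at D6, against 1.44 (1.14 to 1.78) and 1.18 (0.943 to 1.45) in the embryonic gate, that is 80.1-fold and 113-fold higher. It was in 64.7% and 64.6% of hypoblast gate cells. Between the days its log2 ratio was 0.20 (0.15 to 0.26) in the hypoblast gate, among the smallest of the 10.

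TBXT (Brachyury), the defining factor of the streak and of nascent mesoderm, was among the rarest of the 10. In the embryonic gate it went from 8 UMIs in 7 of 3716 cells at D4 to 46 UMIs in 25 of 5054 cells at D6, or from 0.138 (0.0598 to 0.273) to 0.615 (0.45 to 0.82) CPM. The log2 ratio was 2.15 (1.05 to 3.45), the largest of the 10 in that gate, and it was 2.40 (1.16 to 3.93) without the cell with most TBXT UMIs on each day. The hypoblast gate held more of it, at 1.65 (1.31 to 2.06) and 3.38 (2.84 to 3.98) CPM, and 1.48% and 2.83% of its cells had a UMI against 0.188% and 0.495% in the embryonic gate. After thinning the D6 shares were 0.841% and 0.139%, a level at which single UMIs decide.

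MIXL1, a homeobox factor induced by NODAL in mesendoderm, differed more between the days in the hypoblast gate than any other factor with a D6 level above 2 CPM there. It stood at 27.6 CPM (26.2 to 29.2) at D4 and 84 (81.3 to 86.8) at D6, with a UMI in 17.9% and 36.8% of cells (7.83% and 18% after thinning). The log2 ratio was 1.60 (1.51 to 1.70). In the embryonic gate the levels were 2.16 (1.80 to 2.58) and 3.11 (2.73 to 3.54), a log2 ratio of 0.53 (0.21 to 0.85), and 1 cell of each day carried 20 of the 125 and 22 of the 233 UMIs.

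MESP1, a basic helix-loop-helix factor of the earliest mesoderm and of heart precursors, was low in both large gates and high in the HAND1 and glycophorin gate. The embryonic gate had 0.934 (0.702 to 1.22) and 1.78 (1.49 to 2.11) CPM at D4 and D6, and the hypoblast gate 1.74 (1.38 to 2.15) and 5.10 (4.44 to 5.83). The 32 cells that the hypoblast gate shares with the HAND1 gate decided part of this. Without the shared cells the D6 over D4 log2 ratio of MESP1 in the hypoblast gate was 0.88 in place of 1.56, and its D6 log2 ratio over the embryonic gate 0.66 in place of 1.52.

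Of the organizer factors, GSC, the classical organizer homeobox gene, was 56.5-fold higher in the hypoblast than in the embryonic gate at D4 and 55.6-fold at D6. Its levels in the hypoblast gate were 20.5 CPM (19.3 to 21.9) at D4 and 37.1 (35.3 to 39) at D6, and 12.4% and 22.7% of cells had a UMI (5.39% and 8.78% after thinning). Embryonic levels were 0.363 (0.225 to 0.555) and 0.668 (0.496 to 0.881), with a UMI in 0.538% and 0.455% of cells. Of the 50 embryonic GSC UMIs of D6, 21 came from 1 cell, and the log2 ratio between the days was 0.88 (0.12 to 1.69) with all cells and 0.24 (-0.65 to 1.15) without the top cell of each day. It was -1.01 when cells over 20000 UMIs were left out, so no direction can be read for GSC in that gate.

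LHX1, a LIM-homeobox factor required for head organizer and AVE function, was the second of the 10 in the hypoblast gate at D6. Its levels there were 70.4 CPM (68 to 72.8) at D4 and 139.9 (136.3 to 143.5) at D6 (log2 ratio 0.99, 0.93 to 1.05), and it was found in 40.2% and 52.3% of cells. The embryonic gate had 1.38 (1.10 to 1.72) and 2.02 (1.71 to 2.37).

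OTX2, which marks epiblast leaving the naive state as well as AVE and anterior neural tissue, was the exception. It was the single factor of the 10 with a high embryonic level, 53.7 CPM (51.8 to 55.6) at D4 and 43.1 (41.7 to 44.7) at D6, with a UMI in 51.1% and 40% of cells. The hypoblast gate had 81.4 (78.9 to 84) and 85.7 (82.9 to 88.5) with 51.2% and 52%. The ratio of hypoblast to embryonic gate was 1.52-fold at D4 and 1.99-fold at D6, short of 2-fold on both days.

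The posterior factors were EVX1, a homeobox gene of the late streak, and CDX1, a caudal-type homeobox gene. EVX1 stood in the hypoblast gate at 19.6 (18.4 to 20.9) and 18.2 (17 to 19.6) CPM and was the lone factor with a ratio below 1 there between the days, with an interval that includes no difference (log2 ratio -0.10, -0.24 to 0.04). Its embryonic levels went from 1.37 (1.08 to 1.70) to 0.762 (0.577 to 0.987). CDX1 was the rarest of all, with 3 and 10 UMIs in the embryonic gate and 13 and 42 in the hypoblast gate, where its levels were 0.272 (0.145 to 0.465) and 1.01 (0.725 to 1.36).

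Counted by day, 2 of the 10 factors, TBXT and CDX1, were at least 2-fold higher at D6 in the embryonic gate and 0 lower, against 5.43% higher and 2.02% lower among 20639 genes. For CDX1 the interval of the log2 ratio of 1.36 ran from -0.59 to 3.86. In the hypoblast gate 4 of 10 were higher (MIXL1, CDX1, MESP1 and TBXT) and 0 lower, against 6.4% and 6.02% of 19306 genes, and the count was 3 without the HAND1 gate cells, MESP1 then being under 2-fold. TBXT, at 2.04-fold, was under 2-fold after thinning (log2 ratio 0.84). LHX1 with 1.99-fold and GSC with 1.81-fold lay just short of 2-fold. The D6 groups of both gates enter several of these comparisons, which are therefore not independent of each other.

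In order of level, the hypoblast gate of D6 gave EOMES, LHX1, TBX3, OTX2, MIXL1, GSC, EVX1, MESP1, TBXT and CDX1. OTX2 and MIXL1 (85.7 and 84 CPM) had overlapping counting intervals, and at D4 the overlapping neighbours were GSC with EVX1 and MESP1 with TBXT. In the embryonic gate of D6, OTX2 stood apart and the next, EOMES and MIXL1, overlapped, as did LHX1 with MESP1, TBX3 with EVX1, and EVX1 with GSC and TBXT. Beyond OTX2, the neighbours with intervals that did not overlap were MIXL1 over LHX1, MESP1 over TBX3 and TBXT over CDX1.

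How much of a hypoblast level reappeared in the embryonic gate differed between the factors. The embryonic level was 0.888% of the hypoblast level for TBX3 at D6, 1.44% for LHX1 and 1.80% for GSC. Several other genes of the hypoblast gate gave similar values, from 0.705% (FOXA1) and 0.752% (APOA1) to 1.19% (GATA4) and 1.35% (TWIST1, from the mesoderm marker list). TBX3 lay within this range, and LHX1 and GSC lay just above it. EOMES (2.19%), MIXL1 (3.71%) and EVX1 (4.18%) lay further above this range, and TBXT (18.2%), MESP1 (34.9%) and OTX2 (50.3%) far above it. Not all hypoblast genes were that low: SOX17 was at 13.5%, APOE at 12.7% and PDGFRA at 8.03%. Free RNA, doublets and own expression were not told apart here.

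**Figure D2:**
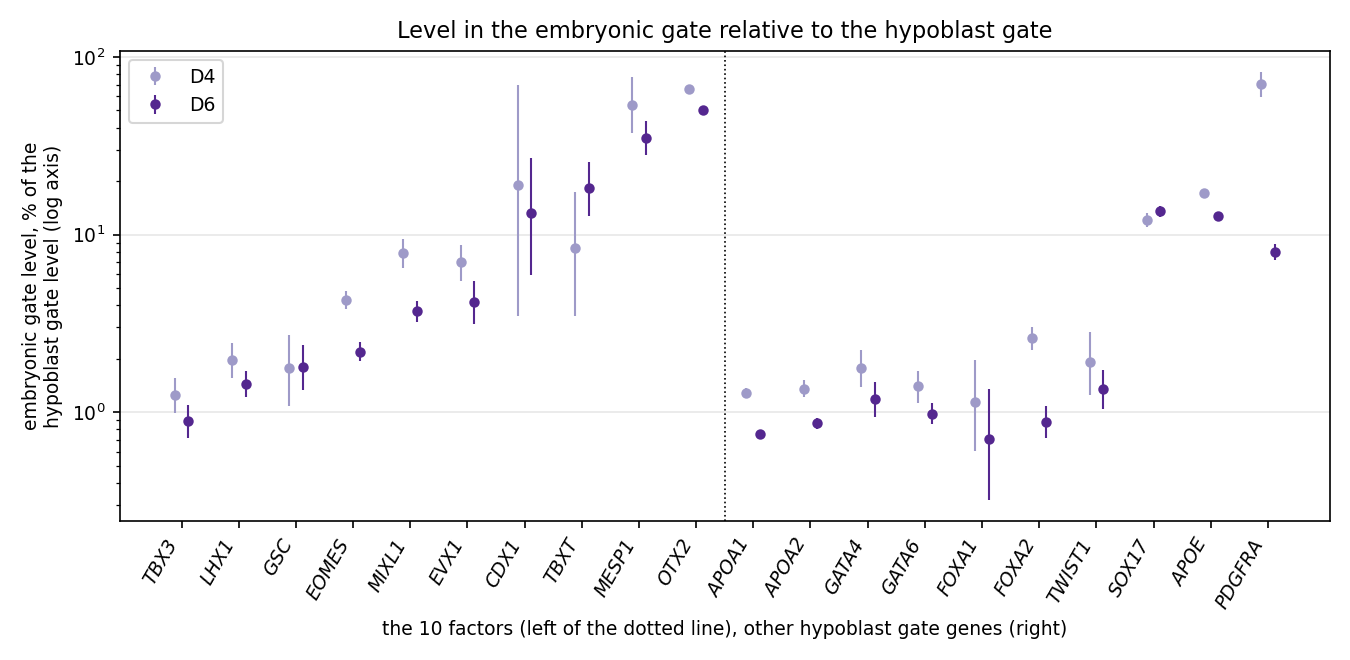
Level in the embryonic gate as a percentage of that in the hypoblast gate (log axis) at D4 and D6, with 95% counting intervals, for the 10 factors and for 10 other genes of the hypoblast gate. TBX3, LHX1 and GSC lie close to APOA1, GATA4 and FOXA1, near 1 to 2%, while TBXT, MESP1 and OTX2 reach 18.2 to 50.3% at D6. Among the other genes, PDGFRA, APOE and SOX17 reach 8.03 to 13.5% at D6.

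Related genes from lists set alongside the factors shifted less uniformly. In the hypoblast gate of D6, 9 of 11 organizer and AVE genes were at least 2-fold above the embryonic gate and 1 below, with a median log2 ratio of 2.98. DKK1, a WNT antagonist, stood at 47.6 against 1.30 CPM, LEFTY1, a NODAL antagonist, at 172 against 9.84, and FST, which binds activin, at 649 against 52.7. Streak ligands were split, 4 of 11 higher and 3 lower with a median of 0.82, and NODAL itself stood at 59 against 3.31 and WNT3 at 12.9 against 1.32. Of the streak targets and adhesion genes with enough UMIs, 4 of 9 were higher, among them the WNT target SP5 at 159 against 6.98, and 2 were lower, including CDH1 (E-cadherin) at 8.09 against 89.8. Of the 5 axial mesendoderm and endoderm genes, 4 were higher and 1 lower.

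Between the days in the hypoblast gate, the same organizer and AVE list had 1 gene higher and 3 lower at D6, while GSC, LHX1 and OTX2 were at or above their D4 levels. The whole list summed to 1458 CPM at D4 and 1639 at D6, and the 6 AVE markers to 786 and 363. The lower sum came from CER1 (213 and 40.2), LEFTY2 (293 and 16.9) and SHISA2 (36.2 and 9.84), while LEFTY1 (154 and 172) and HHEX (70 and 76.1) were near their D4 levels and DKK1 (19.5 and 47.6) was over 2-fold higher.

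The gate on SOX2 left out the cells in which TBXT was most frequent among POU5F1-positive cells. Of the 181 kept cells with a TBXT UMI at D6, 101 were in the hypoblast gate, 25 in the embryonic gate, 3 in the HAND1 gate and 54 in none, and 21 of those 54 had at least 5 POU5F1 UMIs, at most 2 FN1 UMIs and no SOX2 UMI. Among all such cells at D6, the share with a TBXT UMI was 6.54% (4.09 to 9.83) of 321 cells with no SOX2 UMI, which lie just outside the embryonic gate, and 1.45% of 620 cells with 1 SOX2 UMI, just inside it. It was 0.441% of 1586 cells with 2 to 3 and 0.316% of 2848 cells with 4 or more. The median depth of the 4 sets went from 11623 to 15553 UMIs, so the share was highest in the shallowest cells, and thinned shares kept the top value at 3.12% with 0 to 0.645% in the others.

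The same cells carried other streak factors. With no SOX2 UMI at D6, MIXL1 was found in 9.03% of cells, EOMES in 10.3%, MESP1 in 7.17% and CDX1 in 1.56%, against 2.67%, 4.56%, 2.63% and 0.0351% at 4 or more. OTX2 ran the other way, from 19.9% to 45.7%. Factors high in the hypoblast gate were also more frequent with no SOX2 UMI at D6. These were TBX3 (4.36% against 1.47%), LHX1 (5.92% against 2.11%), GSC (1.56% against 0.316%) and EVX1 (4.98% against 1.09%). CER1 stood at 14.6 against 1.41 CPM there, with a UMI in 1.56% against 1.37% of cells. At D4 the share with TBXT was 0.935% of 214 cells with no SOX2 UMI, or 2 cells, while EOMES was in 20.1% and MIXL1 in 7.01% of them. Factors high in the hypoblast gate were raised in these D4 cells as well. TBX3 was in 12.6% against 1.61% at 4 or more SOX2 UMIs, LHX1 in 11.7% against 1.28% and GSC in 7.48% against 0.426%. CER1 stood at 164 against 11.6 CPM, and OTX2 again ran the other way (42.1% against 54.8%). Hypoblast-like content, doublets and free RNA in this set were not tested.

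**Figure D3:**
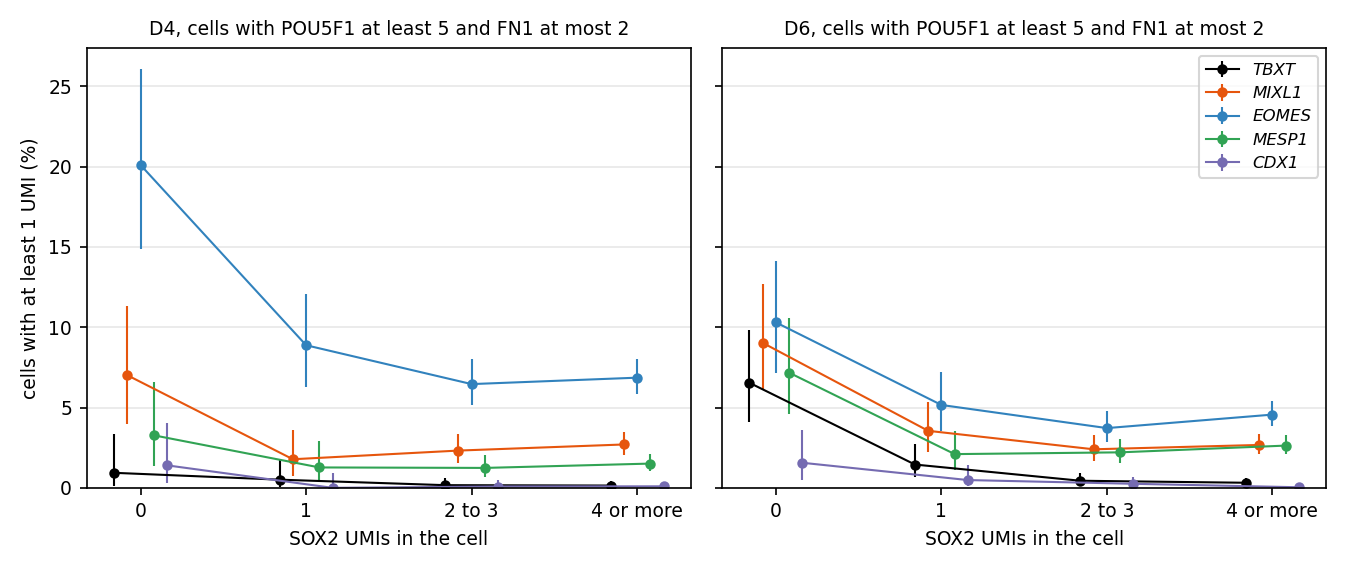
Share of cells with a UMI of TBXT, MIXL1, EOMES, MESP1 or CDX1 (percent, with exact binomial 95% intervals) among cells with at least 5 POU5F1 and at most 2 FN1 UMIs, by the number of SOX2 UMIs in the cell, at D4 (left) and D6 (right). All 5 are highest at 0 SOX2 UMIs, and TBXT reaches 6.54% there at D6 against 0.935% at D4.

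Cells with TBXT did not look alike across the gates. In the set without SOX2 UMIs, chosen after its values were seen, the 21 cells with TBXT (median 14152 UMIs) had MIXL1 at 339.9 CPM against 16.3 in the 300 cells without (median 11503). EOMES stood at 125 against 5.52 and MESP1 at 228 against 13.4, and these 3 factors were found in 76.2%, 71.4% and 57.1% of the TBXT cells against 4.33%, 6% and 3.67% of the rest. LHX1 was also higher, 80.2 against 6.39. TBX6, a paraxial mesoderm T-box gene, was at 41.7 against 2.61, WNT3 at 51.3 against 4.65 and CDH2 (N-cadherin) at 57.7 against 19.2, whereas CDH1 was at 89.8 against 74.3 with an interval of the log2 ratio from -0.35 to 0.84. UTF1, an epiblast gene, was in 0 of these 21 cells, which allows a share of up to 14.3%, against 65.3 CPM in the others. Hypoblast markers were split. APOA1 (70.5 against 184.4) and APOE (917 against 1225) were lower, and APOA2 (16 against 18) and SOX17 (12.8 against 13.1) were nearly level. GATA6 (77 against 8.71), PDGFRA (28.9 against 4.94) and GATA4 (9.62 against 1.45, from 3 and 5 UMIs) were higher. FOXA2 had 0 and 2 UMIs. The genes that ranked highest by ratio were CER1 (44 UMIs, in 3 of the 21 cells), WNT8A, MESP2, PCDH19 and LZTS1.

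In the embryonic gate of D6, the 25 cells with TBXT had NODAL at 101 CPM against 2.72, found in 18 of the 25, and the WNT target SP5 at 108 against 6.36, also in 18. MIXL1 was at 114 against 2.43 and EOMES at 46.2 against 3.59. EVX1 was found in 24% of them against 0.994% and CDX1 in 12% against 0.0994%, while LHX1 was in 0 of 25, which allows a share of up to 12%. OTX2 was lower, 15.4 against 43.3, and so was UTF1, 28.6 against 75.6. The first gene by ratio, HP, came from a single cell with 24 UMIs, and APOA1 was higher in these cells (244 against 88.7).

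TBXT in the hypoblast gate of D6 had other neighbours. The 101 cells had EOMES at 202 CPM against 174.5, MIXL1 at 126 against 82.5 and MESP1 at 3.41 against 5.16, so that none of the 3 was 2-fold higher. APOA1 was at 10203 against 11989 and CDH2 at 388 against 416. Among the highest ratios were CER1 (141 against 36.5, with 185 of its 207 UMIs from 1 cell) and DKK1 (122 against 45), while DKK4 rested on 2 cells. GSC was found in 41.6% of these cells against 22.1%. Cells with TBXT were deeper in each set, 13771 against 10869 median UMIs here, and the part of depth in the shares was not tested beyond thinning.

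GSC in the hypoblast gate was accompanied by CER1, LEFTY1 and LEFTY2 on both days, and by DKK1 at D6 but not at D4. At D4 the 502 cells with GSC (median 11932 UMIs) had LEFTY1 at 763 CPM against 58.4 in the 3559 without (median 10918), CER1 at 1040 against 82.9 and LEFTY2 at 1099 against 167. LEFTY1 was found in 305 and CER1 in 274 of the 502 cells. MIXL1, OTX2 and LHX1 were higher as well, by log2 ratios of 1.46, 1.18 and 0.98, and NODAL by 2.27. TBX3 was lower by a log2 ratio of -0.51. DKK1 (0.15) and APOA1 (-0.17) were nearly level, so that the cells with GSC kept the common hypoblast gene APOA1.

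At D6 the 808 cells with GSC had CER1 at 106 against 16.2, LEFTY2 at 42.6 against 7.63 and DKK1 higher by a log2 ratio of 1.18. The ratio of LEFTY1 was 2.17 on the log2 scale. TBX3 was again lower, by -0.79. CER1 and LEFTY2 were thus lower at D6 than at D4 in both sets of cells, and both were higher in the cells with GSC on either day. DKK4, first by ratio, rested on 83 UMIs in 11 cells.

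**Figure D4:**
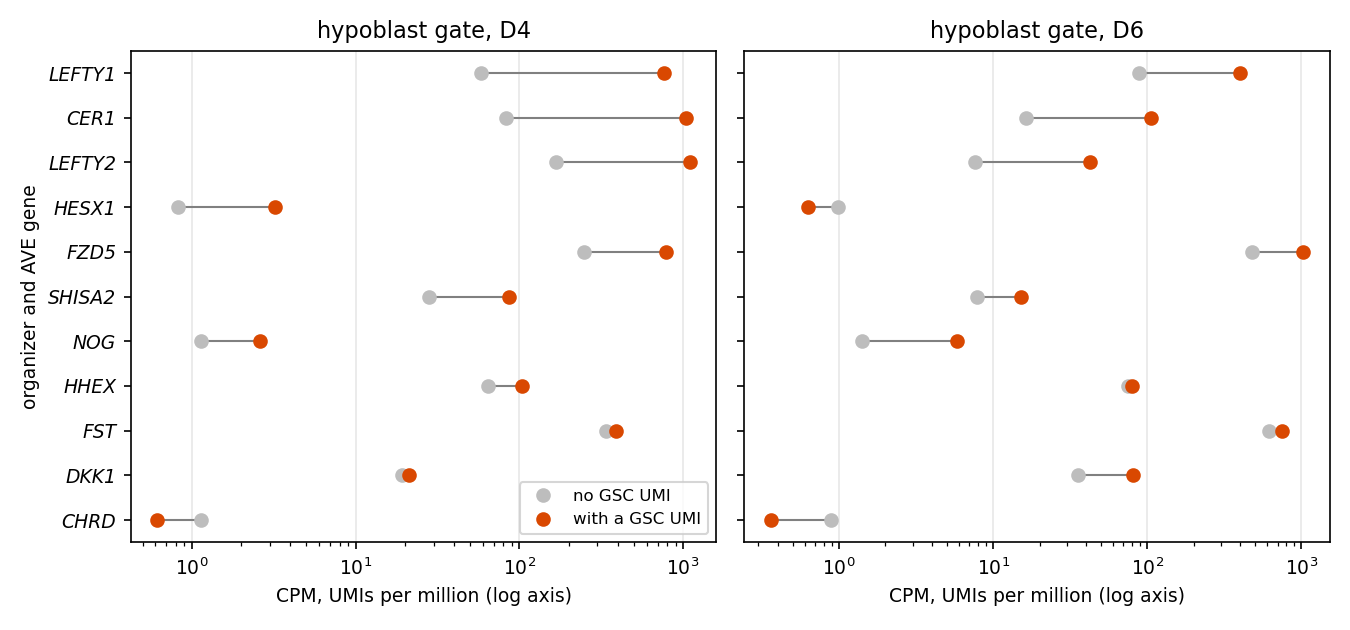
Level of 11 organizer and AVE genes (CPM, log axis) in hypoblast gate cells with a GSC UMI (orange) and without (grey) at D4 (left) and D6 (right). LEFTY1, CER1 and LEFTY2 are furthest apart at D4 (CER1 at 1040 against 82.9), and at D6 CER1, LEFTY2, LEFTY1 and NOG (5.85 against 1.40) are, while FST lies close together in both panels (752 against 612 at D6) and CHRD has few UMIs in either set.

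OTX2 and TBX3 lay at opposite ends of the same pattern in the hypoblast gate of D4. Cells with OTX2 had CER1 at 341.5 CPM against 58.3 and GSC at 32 against 6.81. Cells with TBX3 had CER1 at 141 against 364 and GSC at 16.1 against 29.8. Cells with EVX1 had CER1 at 117 against 238.5 and LEFTY1 at 76 against 175. EOMES stood with OTX2 in direction but with smaller gaps, CER1 at 255 against 107. At D6, cells with LHX1 had CER1 at 57.2 against 18.5 and MIXL1 at 107 against 54.7, and cells with MIXL1 had CER1 at 71 against 19.5 and NODAL at 86.3 against 40.5.

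Pairs of factors were compared by the number of cells with both over the number that the product of their shares gives, within a gate. Cells of a gate and day share the library but not the depth, which ran from 3432 to 27412 UMIs in the hypoblast gate of D6. The part of depth in these ratios was not tested beyond thinning. In the hypoblast gate of D4, MIXL1 and GSC met in 155 cells, 1.72 times that number, and GSC was in 21.3% of MIXL1 cells against 10.4% of the others. The ratio was 1.48 for GSC with OTX2 (75.7% against 47.7%) and 1.38 for GSC with LHX1. GSC with TBX3 gave 0.902. After thinning these 4 pairs of D4 gave 2.45, 1.97, 1.49 and 0.862 in that order. At D6 the values were 1.46, 1.38, 1.37 and 0.883 for the same 4 pairs in that order, and after thinning they were 1.61, 1.42, 1.41 and 0.595.

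Within the hypoblast gate, TBXT with GSC had the highest D6 value of pairs with at least 10 cells, 1.84 from 42 cells. It was followed by EVX1 with CDX1 (1.81, 12 cells) and TBXT with EVX1 (1.61, 29 cells). After thinning the values were 0.76 from 2 cells, 1.10 from 1 cell and 2.34 from 4 cells in that order, too few cells to read. EOMES and TBX3, each present in most cells of the gate, gave values between 0.883 and 1.21 with their partners at D6. A median hypoblast gate cell had UMIs of 3 of the 10 factors on either day, against 1 and 0 in the embryonic gate. Some pairs had higher values in the embryonic gate of D6, such as TBXT with EOMES (10.1, 11 cells) and EOMES with MIXL1 (5.21, 31 cells). Thinning left 2 and 4 cells of these 2 pairs.

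**Figure D5:**
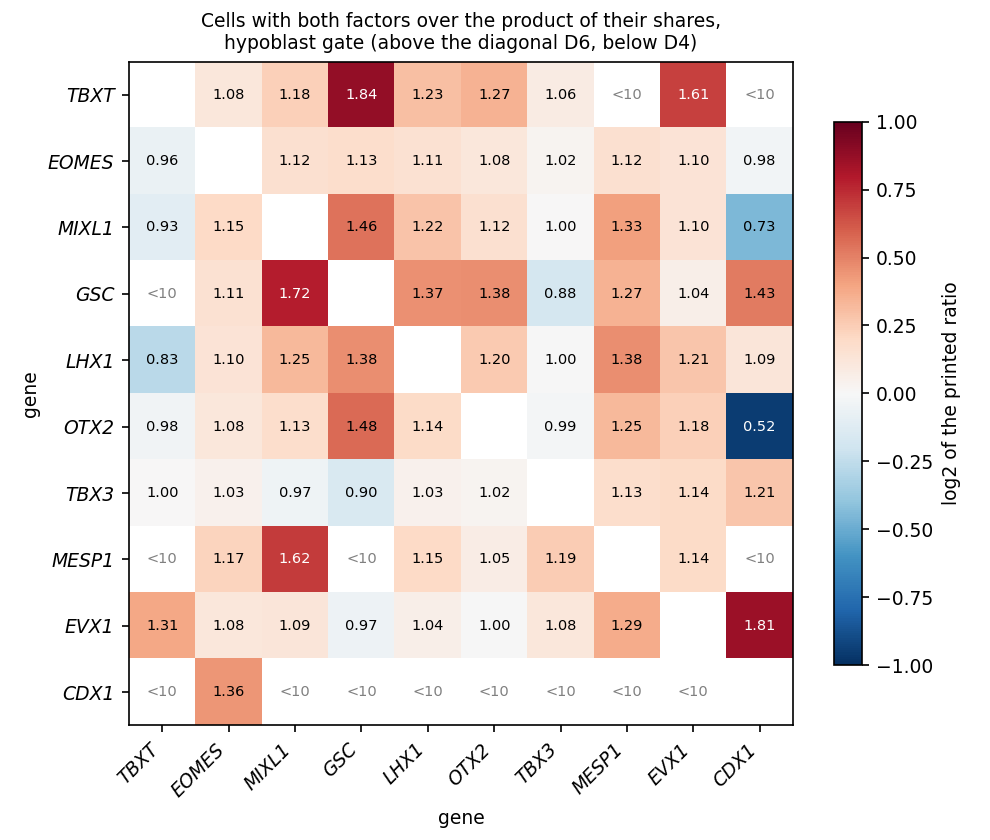
Cells with both factors of a pair over the number given by the product of their shares, in the hypoblast gate, with D6 above the diagonal and D4 below it. Pairs met in fewer than 10 cells are marked and not coloured, GSC with MIXL1, OTX2 and LHX1 lies between 1.37 and 1.72 on both days, and GSC with TBX3 is below 1.

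In the 78 cells of the HAND1 and glycophorin gate at D6, 4 of the factors stood above both other gates with intervals that did not overlap. HAND1 is a factor of extra-embryonic and lateral mesoderm, and GYPE and GYPB encode glycophorins. LHX1 stood at 762 CPM (710.9 to 815.8) and was found in 91% of cells (75.6% after thinning), MIXL1 at 279.9 (249.2 to 313.2), EOMES at 275 (244.9 to 308.3) and MESP1 at 209 (182.4 to 237.8) with 71.8% of cells. OTX2 at 93.3 and TBX3 at 96.1 had intervals that overlapped each other, and EVX1 (9.24), GSC (7.39) and TBXT (3.69, from 4 UMIs in 3 cells) were lowest. The TBX3 level (78.5 to 116.4) lay below that of the hypoblast gate of D6 (129 to 136). CDX1 had a UMI in 0 of 78 cells, which allows a share of up to 3.85% and a level of up to 2.77.

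Against the embryonic gate, 9 of 10 factors were at least 2-fold higher and 0 lower, with 13.4% and 9.71% of 19370 genes as the background, a median log2 ratio of 5.27 and a shift of 0.11 in the median of well-counted genes. LHX1 was 378-fold higher, MESP1 117-fold and MIXL1 89.9-fold. Of the streak ligands with enough UMIs, 7 of 10 were higher and 0 lower, with FGF8 at 41.6 against 0.347 CPM, FGF17 at 214 against 6.28 and BMP4 at 101 against 8.83. Streak targets and adhesion genes had 7 of 9 higher, among them SNAI2 at 28.6 against 0.227, and CDH1 was the 1 lower, at 9.24 against 89.8. CER1 at 1002 against 4.46 and DKK1 at 318 against 1.30 were high as well, but LEFTY1 was not (5.54 against 9.84).

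Since many of these cells also passed the hypoblast gate, they were compared with the remaining hypoblast gate cells, a comparison added after the values were seen. Here 3 of 10 factors were higher and 1 lower, against 13.3% and 9.21% of 17300 genes, with a shift of 0.15 in the median of well-counted genes. MESP1 stood at 209 against 2.81 CPM (log2 ratio 6.21, 5.89 to 6.55), LHX1 at 762 against 133 (2.52, 2.41 to 2.62) and MIXL1 at 279.9 against 81.7 (1.78, 1.60 to 1.95). GSC was the factor that was lower, 7.39 against 37.4 (-2.34, -3.56 to -1.36). EVX1, at 9.24 against 18.4, was at the edge of 2-fold. Hypoblast markers were also lower in these cells, 6 of 8 by at least 2-fold, and their part in the GSC value was not tested.

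Within the HAND1 gate, MESP1 cells were nearly all LHX1 cells, 55 of 56, which was 1.08 times the product of the shares since LHX1 was in 71 of the 78 cells. MESP1 was in 81.8% of EOMES cells against 16.7% of the 12 others. For TBX3 the difference ran the other way, with MESP1 in 61.9% (45.6 to 76.4) of TBX3 cells against 83.3% (67.2 to 93.6) of the rest, but these intervals overlapped. TBX3 was in 78.1% of the 32 cells shared with the hypoblast gate and in 53.8% of the whole HAND1 gate, and the part of this mixture was not tested. A median cell had UMIs of 5 of the 10 factors. Of all 331 kept cells with MESP1 at D6, 16.9% lay in this gate and 37.2% in the embryonic gate, where the 123 MESP1 cells had 1.08 UMIs each on average.

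In those 123 embryonic gate cells a few cells decided the levels of other genes. CER1 stood at 106 against 1.69 CPM but came from 5 cells, 137 of its 211 UMIs from 1 of them, and GSC at 11 against 0.384 with a UMI in 1.63% of the cells. MIXL1 (34.1 against 2.27, in 9.76% against 2.51% of cells) and EOMES (14.6 against 3.56, in 12.2% against 4.18%) were spread over more cells.

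Related loci limit some of these readings. Paralogs of the factors were mostly low at D6, with CDX2 at 2.99 CPM in the hypoblast gate and MESP2 at 47.1 and TBX6 at 19.4 in the HAND1 gate. LHX1-DT, the divergent transcript beside LHX1, followed it (33.9 in the hypoblast gate and 112 in the HAND1 gate), EVX1-AS stood at 1.99 and OTX2-AS1 at 0.12 in the hypoblast gate. The use of strand in counting is not given in the sources used here, so reads of LHX1, EVX1 and OTX2 could not be told apart from those of overlapping partners. At the edge of the hypoblast gate, EOMES, MIXL1 and GSC hardly depended on the FN1 threshold at D6. EOMES was in 76.4% of 208 cells with 2 FN1 UMIs and 72.1% of 269 cells with 3. MIXL1 was in 34.1% and 39.8%, and GSC in 23.1% and 26.8%. The other factors and D4 are not given for this edge.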

How the data were processed

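The 2 single-cell libraries (D4 and D6) were analysed, and 7 bisulfite libraries of the series were not analysed here. The authors deposited unnormalised UMI counts per gene and cell barcode from 3′ droplet libraries, made with Cell Ranger 6.0.1 per the file headers and the genome build hg38 per the submitters' processing notes. Levels were UMIs summed over the cells of a gate, per 1000000 UMIs of that gate (CPM). Ratios with fewer than 10 UMIs over both groups were not counted as higher or lower, the threshold was 2-fold, and the limit for a count of 0 was 3 counts. Kept cells lay within a lower and an upper limit on UMIs, and thinned values reduce each cell to the lower limit. With 1 library per day, cells were not treated as replicates and no p-value was computed. No doublet caller was run, and the UMI ceiling and gates alone acted on doublets.

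All 10 factors are named. Beside a factor, the 5 genes with the highest ratio among those with at least 20 UMIs were named, together with related lists and markers. The members, lists, gates and motifs were chosen with earlier results of these data known. The scripts were tested on simulated data and ran under Python 3.11.15, numpy 2.4.6, pandas 2.3.3 and scipy 1.17.1. Alternatives were thinning, cell filters, gate thresholds, scaling, averaging over cells, and the fold and count minimum. Added after the data were seen were the comparison of HAND1 gate cells with the other hypoblast gate cells, TBXT in further cell sets, GSC at D4, the hypoblast gate without HAND1 gate cells, and levels without the top cell.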

Additional observations from a re-analysis of the deposited data

Results flagged for a closer look

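For 2 of the 10 factors the D6 over D4 change had opposite signs in the embryonic and the hypoblast gate, with counting intervals that exclude 0 in both. EOMES had a log2 ratio of -0.51 in the embryonic gate and 0.46 in the hypoblast gate, a difference of 0.97. For OTX2 the ratios were -0.31 and 0.07, a difference of 0.38. With 1 library per day the difference was not tested, and the OTX2 value in the hypoblast gate is small.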

How the results depend on the processing

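With 1 library per day, counting error is the one error measured, and culture, library and day cannot be told apart. Of 529 log2 ratios of the factors under the alternatives, 452 kept their value within the counting interval, 77 moved outside it and 0 called ratios changed sign. A ratio under 2-fold in the main setting could change sign. GSC by day in the embryonic gate did so with at most 20000 UMIs per cell. The counts of factors at least 2-fold higher or lower were within 1.5 times under all alternatives for the hypoblast gate by day, for both comparisons of hypoblast with embryonic gate and for the HAND1 gate over the embryonic gate. In the embryonic gate by day (2 higher, 0 lower) they were 0 and 1 after thinning, where 8 factors had enough UMIs. There 1 was higher with a mitochondrial limit of 5%, 1 higher and 2 lower with at most 20000 UMIs per cell, 4 higher with no cell filter, and 4 higher and 1 lower at 1.5-fold. Against the other hypoblast gate cells, 2 in place of 1 were lower in the HAND1 gate under the 5% limit, no cell filter, the stricter hypoblast gate, HAND1 cells of no other gate, at least 4 HAND1 UMIs, median ratio scaling and 1.5-fold. The share of embryonic gate cells with TBXT at D6 (0.495%) was 0.139% after thinning, 0.856% with no SOX2 requirement and 0.218% at 2 or more UMIs. The share of hypoblast gate cells with GSC at D4 (12.4%) was 5.39%, 11.4% in the stricter gate and 4.65% in the same way. Pairs with at least 10 cells at 1.5 times or more in the embryonic gate (5 at D4, 9 at D6) numbered 0 after thinning, since at most 4 cells per pair were left, and ratios from so few cells, such as 7.76 for EOMES with MIXL1 at D6 (5.21 unthinned), were not lower throughout. No paired analysis was possible because each day is 1 library and no test was made, and the shared replicate numbers in the labels belong to bisulfite libraries.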
